A study of Mus musculus with 9 samples.

Results

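The genes described here make, package, take up and break down γ-aminobutyric acid (GABA), the main inhibitory transmitter of the brain. They are Gad1, Gad2, Slc32a1, Slc6a11, Abat and Aldh5a1, which were chosen by name and are 6 of the 53465 genes in the count table. All 6 passed the filter on low counts, which left 18501 genes for testing. Whole-brain RNA from male C57BL/6 mice was sequenced in 3 libraries each of CON, DNP and BAC, from mice that were 7 weeks old when the experiment began. CON mice were not made diabetic and received saline. DNP mice, the model of diabetic neuropathic pain, were given a 60% fat diet for 4 weeks and then the beta cell toxin streptozotocin (50 mg/kg daily, 7 days), with a fasting glucose of 16.7 mmol/L or more as the criterion for diabetes, and they received saline as well. BAC mice were made diabetic in the same way and were then injected with the GABA-B receptor agonist baclofen (8 mg/kg daily, 7 days). Only mice with lasting hyperglycemia and, 4 weeks after streptozotocin, lower mechanical and thermal pain thresholds than CON entered DNP or BAC. Diet, streptozotocin, diabetes and this selection therefore cannot be told apart in any comparison with CON. Nothing states how many mice went into a library, so p-values measure the spread between these libraries.

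GABA is formed in inhibitory neurons when glutamic acid decarboxylase removes a carboxyl group from glutamate, with pyridoxal phosphate as cofactor. Of the 2 decarboxylases, GAD67 (gene Gad1) is found throughout the cell and supplies most of the GABA, while GAD65 (Gad2) is concentrated at nerve terminals. Slc32a1 encodes VGAT, which loads GABA and glycine into synaptic vesicles, so neurons that use glycine in the brainstem and spinal cord also carry it. Slc6a11 encodes GAT-3, a GABA transporter of the plasma membrane that is found mainly on astrocytes and is more abundant in brainstem and thalamus than in cortex. Abat encodes the mitochondrial GABA transaminase, which converts GABA to succinic semialdehyde. Aldh5a1 encodes succinic semialdehyde dehydrogenase, which oxidises that product to succinate and so closes the GABA shunt, a side route around part of the citric acid cycle.

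In these brains, Slc6a11 and Abat differed most between groups, with a fitted level 3.04-fold and 1.56-fold higher in BAC than in CON, and Slc6a11 was 2.42-fold higher in DNP than in CON. Gad1 and Aldh5a1 differed by less than their error between DNP and CON (1.07-fold and 0.993-fold). None of the 6 passed the adjusted test in any comparison, nor did any other gene (0% of those tested). The 3 highest levels of Slc6a11 and Abat were in DNP replicate 1 and BAC replicates 1 and 3, which also held markers of brainstem and spinal cord. No CON library held these markers at a like level, so region content was split unevenly between the groups. Its part in the fold changes was not tested. Fold changes are given for the first group named relative to the second.

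Gad1 (ENSMUSG00000070880) lies on the plus strand at chr2:70553072-70602014 of GRCm38, and Gad2 (ENSMUSG00000026787) on the same strand at chr2:22622205-22693874. Because reads from near-identical genes could be credited to the wrong one, the coding sequences of the decarboxylases were compared. Their longest shared run was 17 bases, and none of the 1749 windows of 31 bases in the Gad1 coding sequence occurred in that of Gad2. Sequence outside the coding regions was not compared. The stretch around the 17-base run is shown because this run is their longest exact match. It encodes the part of the enzymes around the lysine that binds the cofactor. It covers coding bases 1174 to 1250 of Gad1 (chr2:70591163-70593500, exons 12 and 13, plus strand) and 1150 to 1226 of Gad2 (chr2:22669758-22674012, exons 11 and 12, plus strand), from the GENCODE transcripts on GRCm38, with the shared run in capitals.
Gad1: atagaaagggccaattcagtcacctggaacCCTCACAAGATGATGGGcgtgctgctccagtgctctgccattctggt
Gad2: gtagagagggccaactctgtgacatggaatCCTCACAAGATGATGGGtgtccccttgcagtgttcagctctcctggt
Of the 77 positions, 59 were identical. The pseudogene Gad1-ps is a closer copy of Gad1, with a shared run of 107 bases and 287 of the 1749 windows in common, but it had only 2 to 9 counts in any library. Gad1 had 4289 to 11140 counts.

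Slc6a11 (ENSMUSG00000030307, chr6:114131241-114249952, plus strand) was compared in the same way with Slc6a13, which encodes the related GABA transporter GAT-2 of meninges, liver and kidney. Their longest shared run was 19 bases, and no window of 31 bases was shared. The stretch below holds that run, in capitals, and is shown because the values of the 2 carriers are set side by side later. It covers coding bases 381 to 459 of Slc6a11 (chr6:114134854-114134932, exon 3, plus strand) and 342 to 420 of Slc6a13 (chr6:121321567-121321645, exon 4, plus strand).
Slc6a11: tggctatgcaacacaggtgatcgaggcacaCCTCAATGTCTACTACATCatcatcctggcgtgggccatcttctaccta
Slc6a13: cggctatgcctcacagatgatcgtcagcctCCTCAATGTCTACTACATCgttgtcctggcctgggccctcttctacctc
Of these 79 positions, 63 were identical. Slc32a1 (ENSMUSG00000037771, chr2:158610767-158615748, plus strand) overlaps the antisense gene Gm14205, by 697 bases in the pair of exons that overlap most, and that gene had 0 to 15 counts. Abat (ENSMUSG00000057880, chr16:8513429-8621568, plus strand) had no overlapping gene in the annotation. Aldh5a1 (ENSMUSG00000035936, chr13:24907579-24937661, minus strand) overlaps the antisense RNA 4932702P03Rik (28 to 60 counts) and the divergent RNA 9330162012Rik (36 to 66 counts). In the pair of exons that overlap most, these overlaps were 397 and 203 bases. The libraries were not strand-specific, so reads from an overlap cannot be assigned to a strand, but Aldh5a1 itself had 1351 to 2333 counts.

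Each library held 13107382 to 16008129 counts, and the 6 genes had 1291 to 11140 counts per library, so that counting error was at most 2.78% of a value. Mitochondrial genes took 4.34 to 5.36% of counts in CON, 6.68 to 7.01% in DNP and 5.94 to 7.23% in BAC. Libraries of the same group differed in the brain regions they held, although the label is whole brain for each. Of 10 markers of brainstem and spinal cord, 9 were tested, and their summed level was 381 CPM (counts scaled to the library size, with TMM factors) in DNP replicate 1, 425 in BAC replicate 1 and 388 in BAC replicate 3, against 0.197 to 29.2 in the other 6 libraries. Slc6a5, the transporter of glycinergic neurons, had 3974, 3064 and 2609 counts in those 3 libraries and 2 to 397 in the others. The homeobox gene Dlx1, which specifies forebrain GABAergic neurons, had 462, 75 and 464 counts in CON, 87, 1689 and 591 in DNP and 12, 667 and 18 in BAC. Gabra6, of cerebellar granule cells, had the most counts in CON replicate 2 (4828) and BAC replicate 1 (2808) and none in DNP replicates 2 and 3 and BAC replicate 2. In bulk tissue such as this, fewer cells of a type and less RNA per cell cannot be told apart.

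Gad1 had a level of 405, 558 and 377 CPM in CON replicates 1, 2 and 3, of 311, 760.5 and 363 CPM in DNP and of 364, 522 and 383 CPM in BAC. The highest library of each group was its replicate 2, and the groups overlapped widely. The lowest and the highest level of all 9 libraries both lay in DNP, a 2.45-fold span. Group means were 447 ± 97.7 CPM for CON, 478 ± 246 for DNP and 423 ± 86.3 for BAC (SD, n = 3 libraries each). The log2 fold change was 0.10 (standard error 0.35) between DNP and CON, -0.18 (0.35) between BAC and DNP and -0.08 (0.35) between BAC and CON, each smaller than its error. The adjusted p was 0.948, 0.998 and 0.964 (edgeR quasi-likelihood test, Benjamini-Hochberg over all genes tested). The sign in DNP versus CON rests on DNP replicate 2, without which the log2 fold change was -0.42, and on CON replicate 3 (-0.01 without it), and that in BAC versus DNP rests on the same library (0.33 without it). In BAC versus CON, the value was 0.11 without CON replicate 2 and 0.01 without BAC replicate 1. With cerebellar and brainstem marker scores as covariates, it was 0.62 (0.44) in DNP versus CON and 0.70 (0.46) in BAC versus CON. These were larger than their errors, with adjusted p of 0.534 and 0.556 (edgeR quasi-likelihood), and BAC versus DNP was at 0.07 (0.29).

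Gad2 had a level of 208, 160.1 and 167 CPM in CON, of 228, 300.0 and 171 CPM in DNP and of 181, 348 and 278 CPM in BAC. Its highest levels were in BAC replicate 2 and DNP replicate 2, the libraries that were also highest in the forebrain GABAergic list (mean log2 deviation from the mean of the 9 libraries, 2.15 and 2.57) and in the olfactory bulb list (1.59 and 3.26). The next highest, BAC replicate 3, was at -2.40 in the forebrain GABAergic list. CON replicate 1 and DNP replicate 3 were at 1.20 and 1.18 in that list, with Gad2 below its mean (-0.07 and -0.36). The part of these regions in the values was not tested. The mean was 178 ± 25.7 CPM for CON, 233 ± 64.9 for DNP and 269 ± 83.8 for BAC (SD, n = 3). Log2 fold changes were 0.38 (standard error 0.28) between DNP and CON, 0.21 (0.28) between BAC and DNP and 0.59 (0.28) between BAC and CON. None passed the adjusted test (adjusted p of 0.641, 0.998 and 0.647, edgeR quasi-likelihood with Benjamini-Hochberg), and the groups overlapped in each comparison. Without BAC replicate 2, the log2 fold change in BAC versus DNP was -0.02.

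Gad1 and Gad2 did not share an order of libraries. In CON replicate 2, Gad1 was the highest and Gad2 the lowest of the CON libraries, whereas in DNP replicate 2 both were the highest of their group. Per length, the ratio of Gad1 to Gad2 FPKM (fragments per length of transcript and library total) was 1.14, 2.05 and 1.32 in CON, 0.799, 1.49 and 1.25 in DNP and 1.18, 0.880 and 0.808 in BAC. A ratio within a library does not depend on how libraries are scaled. It does depend on the lengths that the FPKM values imply (10204 bases for Gad1, 5990 for Gad2). In counts, the ratio ran from 1.36 in DNP replicate 1 to 3.49 in CON replicate 2. The mean FPKM ratio was 1.50 ± 0.478 for CON, 1.18 ± 0.350 for DNP and 0.955 ± 0.196 for BAC (SD, n = 3), and the ranges overlapped between all groups. Purkinje cell markers, whose list includes Pcp2 and Calb1, had their highest mean log2 deviation in CON replicate 2 (3.39). That library also had the highest ratio. BAC replicates 1 and 3 were at 2.44 and 1.33 in these markers, with ratios of 1.18 and 0.808. DNP replicate 2, whose ratio of 1.49 was the next highest after CON replicate 2, was at -2.62. The part of Purkinje cells in the ratio was not tested.

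Slc32a1 had a level of 181, 229 and 146 CPM in CON, of 281, 245 and 145 CPM in DNP and of 229, 259 and 291 CPM in BAC. DNP replicate 3 and CON replicate 3 were the lowest libraries, nearly level with each other, and 2 of the 3 BAC libraries lay above every CON library. The mean was 186 ± 41.6 CPM for CON, 224 ± 70.6 for DNP and 259.6 ± 31.4 for BAC (SD, n = 3). Log2 fold changes were 0.27 (standard error 0.27) between DNP and CON, 0.22 (0.27) between BAC and DNP and 0.48 (0.27) between BAC and CON, with adjusted p of 0.751, 0.998 and 0.674 (edgeR quasi-likelihood, Benjamini-Hochberg). Without DNP replicate 3 the value in BAC versus DNP was -0.02.

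Relative to the decarboxylases, the vesicular carrier stood high in the 3 libraries that held the brainstem and spinal cord markers. The ratio of Slc32a1 FPKM to the sum of Gad1 and Gad2 FPKM was 0.872, 1.01 and 0.806 in CON, 1.46, 0.704 and 0.808 in DNP and 1.24, 0.847 and 1.24 in BAC. DNP replicate 1 and BAC replicates 1 and 3 had the 3 highest ratios, and the next was CON replicate 2. The same 3 libraries held 2609 to 3974 counts of Slc6a5, whose cells also use VGAT. How far this bears on the ratio was not tested.

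Slc6a11 varied more than any other of the 6 genes. Its level was 173, 92.0 and 159.6 CPM in CON, 622, 262 and 146 CPM in DNP and 376, 238 and 679 CPM in BAC. The 3 highest levels were in DNP replicate 1 and BAC replicates 3 and 1, and DNP replicate 3 lay within the range of CON. All 3 BAC libraries lay above all 3 CON libraries, and in DNP 2 of 3 did. From the lowest to the highest library the level spanned 7.38-fold, against 1.66-fold to 2.45-fold for the other 5 genes, and the biological coefficient of variation fitted within groups was 48.4%, against 20.9 to 32.6%. The mean was 142 ± 43.5 CPM for CON, 343 ± 248 for DNP and 431 ± 226 for BAC (SD, n = 3).

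The log2 fold change of Slc6a11 was 1.28 (standard error 0.57) between DNP and CON, 0.33 (0.56) between BAC and DNP and 1.61 (0.57) between BAC and CON. It passed the adjusted test in no comparison, with adjusted p of 0.447, 0.998 and 0.628 and unadjusted p of 0.052, 0.572 and 0.0214 (edgeR quasi-likelihood, Benjamini-Hochberg). Without DNP replicate 1 the log2 fold change in DNP versus CON was 0.53, and without BAC replicate 3 that in BAC versus CON was 1.11 and that in BAC versus DNP -0.16 (-0.04 without DNP replicate 3). Leaving out DNP replicate 1 and BAC replicates 1 and 3 together gave 0.51 (standard error 0.37) in DNP versus CON and 0.74 (0.45) in BAC versus CON, where BAC is a single library that is assumed to vary like the others. With the scores of the cerebellar and the brainstem marker lists as covariates, which left 4 residual degrees of freedom, the values were -0.16 (0.45) and -0.19 (0.45). The libraries left out were also the 3 with the highest Slc6a11, so the fold had to shrink without them, and the part of region content in it was not tested.

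Astrocyte markers, of the cells that carry GAT-3, were also higher in these libraries. The mean log2 deviation of the 10 astrocyte markers, all of them tested, was 0.45 in DNP replicate 1, 0.66 in BAC replicate 1 and 0.60 in BAC replicate 3, against -0.55 to 0.28 in the other 6. The positive value among those 6 was that of CON replicate 2, where Slc6a11 was lowest. The markers of this list did not move alike. Aldh1l1 was at 59.7 to 85.1 CPM, highest in CON replicate 2, and Gfap at 146 to 588 CPM, highest in BAC replicate 3. The part of astrocyte number in the level of Slc6a11 was not tested. Per length, Slc6a11 relative to Slc32a1 had an FPKM ratio of 0.519, 0.218 and 0.593 in CON, 1.20, 0.580 and 0.548 in DNP and 0.894, 0.499 and 1.27 in BAC, with the 3 highest again in DNP replicate 1 and BAC replicates 1 and 3.

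Abat had a level of 295, 346 and 259 CPM in CON, of 479.6, 324 and 248 CPM in DNP and of 466, 367 and 572 CPM in BAC. Each BAC library was above each CON library, by little in the case of BAC replicate 2 and CON replicate 2, whereas the DNP libraries lay on both sides of the CON range. The mean was 299.7 ± 44.0 CPM for CON, 350.5 ± 118 for DNP and 469 ± 102 for BAC (SD, n = 3). Log2 fold changes were 0.23 (standard error 0.27) between DNP and CON, 0.42 (0.27) between BAC and DNP and 0.64 (0.27) between BAC and CON, with adjusted p of 0.802, 0.998 and 0.636 and an unadjusted p of 0.0415 in the last (edgeR quasi-likelihood, Benjamini-Hochberg). As for Slc6a11, the 3 highest levels were in BAC replicate 3, DNP replicate 1 and BAC replicate 1. Leaving these 3 libraries out, the log2 fold change was -0.08 (0.21) in DNP versus CON and 0.28 (0.26) in BAC versus CON, and without DNP replicate 1 alone it was -0.07 in DNP versus CON. As for Slc6a11, the fold had to fall without the 3 highest libraries, and BAC was then a single library. With the marker scores as covariates, the values were 0.08 (0.27) in DNP versus CON and 0.28 (0.28) in BAC versus CON.

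Aldh5a1 was the steadiest of the 6 genes, with 110.2, 122 and 114 CPM in CON, 138, 117 and 88.7 CPM in DNP and 137, 114 and 147 CPM in BAC. The CON libraries lay close together, and the DNP libraries were spread around them. The mean was 115 ± 5.89 CPM for CON, 115 ± 24.8 for DNP and 133 ± 16.8 for BAC (SD, n = 3). Log2 fold changes were -0.01 (standard error 0.18) between DNP and CON, 0.21 (0.18) between BAC and DNP and 0.20 (0.18) between BAC and CON, with adjusted p of 0.990, 0.998 and 0.807 (edgeR quasi-likelihood, Benjamini-Hochberg). The sign in DNP versus CON turned with the scaling (0.03 with library totals only) and with single libraries (0.03 when CON replicate 2 was left out, 0.14 for DNP replicate 3). Without the 3 libraries with brainstem markers the value in BAC versus CON was -0.03. These 3 were also the highest in Aldh5a1, so the value had to fall, and BAC was then a single library.

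**Figure D1:**
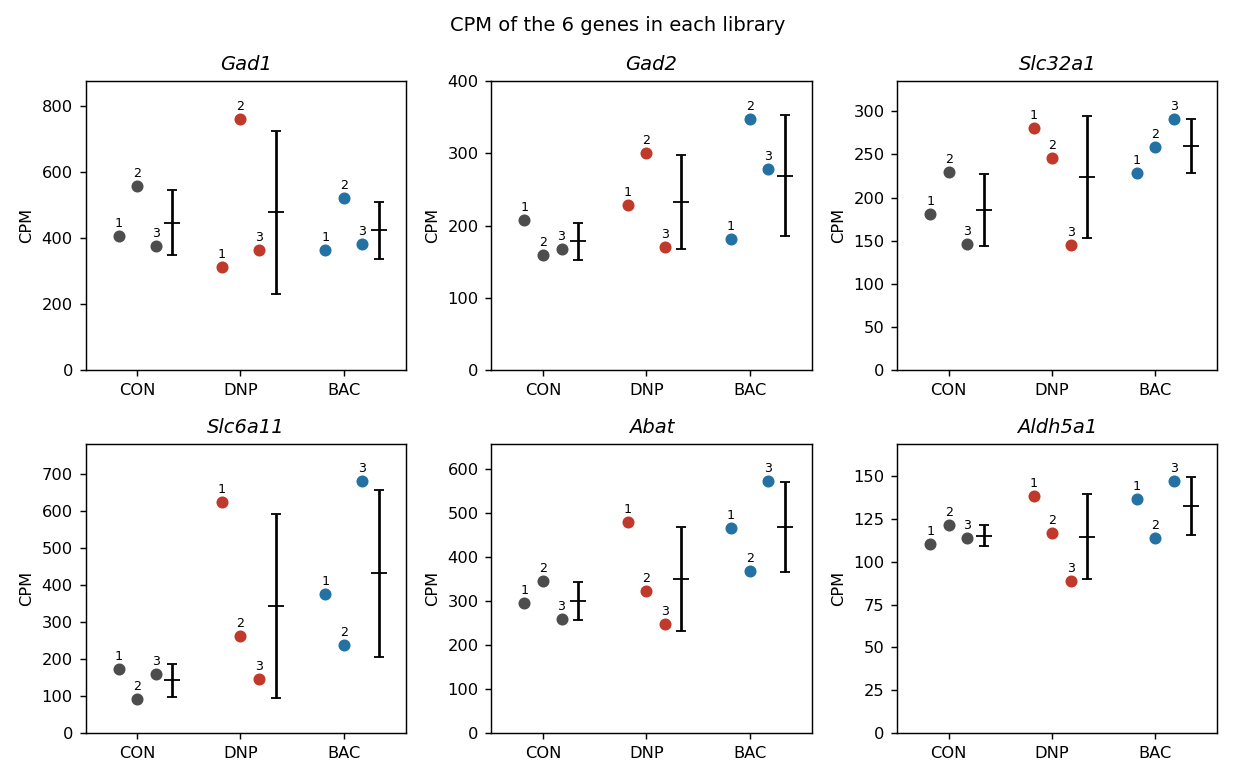
Level of each of the 6 genes (CPM, TMM-scaled, linear axis from 0) in the 9 libraries by group, with replicate numbers above the points and the group mean ± SD (n = 3) beside them. Slc6a11 runs from 92.0 CPM in CON replicate 2 to 679 CPM in BAC replicate 3, and only Slc6a11 and Abat have all BAC points above all CON points.

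The transaminase and the dehydrogenase act in sequence, and their ratio varied less over the libraries than the other ratios computed here. Abat to Aldh5a1 had an FPKM ratio of 1.58, 1.68 and 1.34 in CON, 2.05, 1.64 and 1.65 in DNP and 2.01, 1.90 and 2.30 in BAC. All 3 BAC ratios were above all 3 CON ratios, and the 3 highest were again those of BAC replicate 3, DNP replicate 1 and BAC replicate 1. Means were 1.53 ± 0.175, 1.78 ± 0.233 and 2.07 ± 0.205 (SD, n = 3). The ratio of Abat to the sum of the decarboxylases was 0.414, 0.444 and 0.416 in CON, 0.731, 0.271 and 0.405 in DNP and 0.740, 0.351 and 0.712 in BAC. It was 0.712 to 0.740 in DNP replicate 1 and BAC replicates 1 and 3 and 0.271 to 0.444 in the other 6 libraries, the same split of libraries as that by the brainstem and spinal cord markers.

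**Figure D2:**
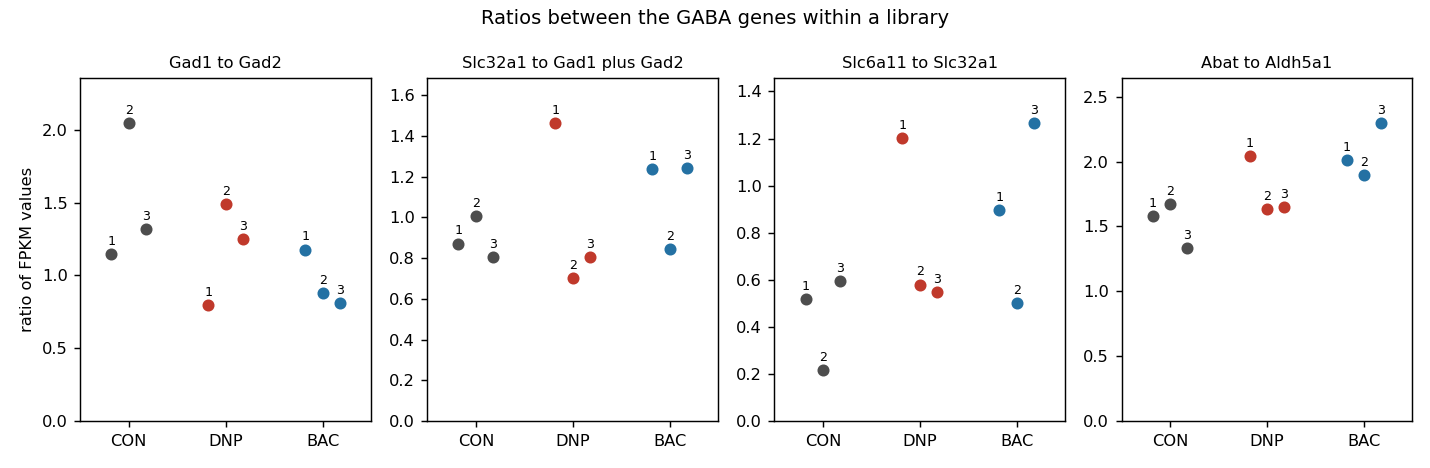
Ratios of FPKM values between the genes within each library (linear axes from 0), by group, with replicate numbers above the points. DNP replicate 1 and BAC replicates 1 and 3 are the highest for Slc32a1 to Gad1 plus Gad2, Slc6a11 to Slc32a1 and Abat to Aldh5a1, and the last is higher in every BAC library than in every CON library.

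To order the genes by level, FPKM was used, since counts grow with transcript length. Slc32a1 had the highest FPKM in every group, at 64.9 ± 16.4 for CON, 80.1 ± 25.0 for DNP and 94.5 ± 11.1 for BAC (SD, n = 3). Aldh5a1 had the lowest in every group, at 19.9 ± 1.73, 20.3 ± 4.33 and 24.0 ± 3.71 FPKM. Slc6a11 was the 5th highest in CON (26.6 ± 7.45 FPKM) and the 2nd in DNP (66.8 ± 48.1) and BAC (85.8 ± 45.8). Gad1 was at 42.8 ± 10.8, 47.0 ± 24.1 and 42.0 ± 6.97 FPKM, Gad2 at 28.9 ± 3.23, 39.0 ± 10.7 and 45.4 ± 12.7, and Abat at 30.6 ± 5.34, 36.7 ± 12.2 and 50.1 ± 12.0. In CON, the ranges of all neighbours in this order overlapped, although Slc32a1 was above Gad1 and Gad1 above Abat in each of the 3 libraries. In DNP and BAC, neighbours overlapped except at the bottom of the order, where Aldh5a1 lay below Abat in DNP and below Gad1 in BAC without overlap. The lengths that the FPKM values imply were 10204 bases for Gad1, 5990 for Gad2, 2797 for Slc32a1, 5149 for Slc6a11, 9571 for Abat and 5647 for Aldh5a1. These exceed the coding sequences of 1779 and 1755 bases for Gad1 and Gad2, and the order rests on them.

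No gene of the 6 passed an adjusted p of 0.05 in any comparison (edgeR quasi-likelihood, Benjamini-Hochberg), and neither did any of the 18501 genes tested (0%). For DNP against CON, 0 of the 6 genes reached an unadjusted p under 0.05, while 11.2% of all genes did, and 0 lay without overlap between the groups, against 9.59% of all genes higher and 8.63% lower. In BAC versus DNP, the counts were again 0 of 6, against 2.37% of all genes at an unadjusted p under 0.05, and 3.38% higher and 3.41% lower without overlap. In BAC versus CON, Slc6a11 and Abat, 2 of the 6, had both an unadjusted p under 0.05 (7.76% of all genes) and no overlap between the groups (7.21% of all genes higher in BAC, 6.23% lower). With DESeq2, the calls were 342 genes between DNP and CON (1.85%), 7 between BAC and DNP (0.0379%) and 100 between BAC and CON (0.552%), with 0 of the 6 genes among them.

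The log2 fold change was above 0 for 5 of the 6 genes in each comparison, against 51.4% of all genes between DNP and CON, 48.1% between BAC and DNP and 48.2% between BAC and CON. The exception was Aldh5a1 in DNP versus CON and Gad1 in the other comparisons. The median over the 6 genes was 0.25 between DNP and CON, 0.21 between BAC and DNP and 0.54 between BAC and CON, beside 0.01, -0.01 and -0.02 over all genes. Each pair of comparisons shares a group, and the 6 genes share their libraries, so these counts are not separate observations. Without DNP replicate 1 and BAC replicates 1 and 3, 4 of the 6 genes were above 0 between DNP and CON (median 0.19), 5 between BAC and DNP (0.30) and 5 between BAC and CON (0.38). With the marker scores as covariates the counts were again 4, 5 and 5, with medians of 0.07, 0.10 and 0.33.

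**Figure D3:**
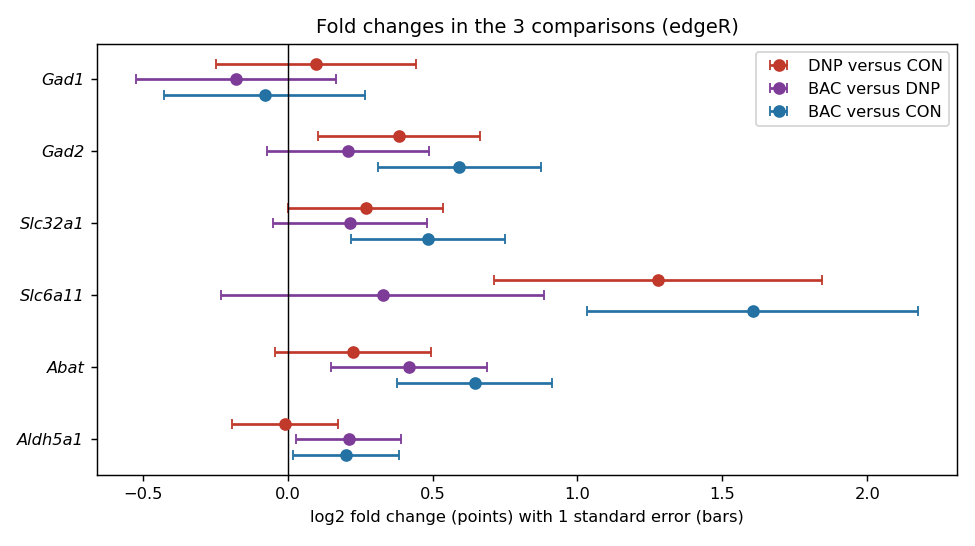
Log2 fold change of each of the 6 genes (points) with 1 standard error (bars) for DNP against CON, for BAC against DNP and for BAC against CON, from the edgeR fit of 9 libraries. The bars of Slc6a11 are the widest, and none of the values passed an adjusted p of 0.05.

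The libraries fell into kinds by region markers, and the 6 genes differed in which kind held their highest levels. Slc6a11, Abat and Aldh5a1 had their 3 highest levels in DNP replicate 1 and BAC replicates 1 and 3, where the 9 tested brainstem and spinal cord markers had a mean log2 deviation of 3.87, 4.50 and 4.79. Gad1 was below its mean in the same 3 libraries (-0.48, -0.25 and -0.18), and also in CON replicate 1 (-0.10), CON replicate 3 (-0.20) and DNP replicate 3 (-0.25). Gad1 was highest in DNP replicate 2 (0.81), CON replicate 2 (0.37) and BAC replicate 2 (0.27). DNP replicate 2 and BAC replicate 2 stood high in striatal (1.70 and 2.07) and forebrain GABAergic markers (2.57 and 2.15), and CON replicate 2 in cerebellar granule cell (3.95) and Purkinje cell markers (3.39). CON replicate 1 and DNP replicate 3, where Gad1 was below its mean, were also above 0 in striatal (1.40 and 0.87) and forebrain GABAergic markers (1.20 and 1.18). Granule cell markers were also above 0 in BAC replicates 1 and 3, CON replicate 3 and DNP replicate 1 (2.98, 1.62, 1.28 and 0.91). Purkinje cell markers were above 0 in the same libraries (2.44, 1.33, 1.39 and 0.58), and Gad1 was below its mean in each. In DNP replicate 3 all 6 genes were below their means, by -0.25 for Gad1 to -0.77 for Slc6a11.

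**Figure D4:**
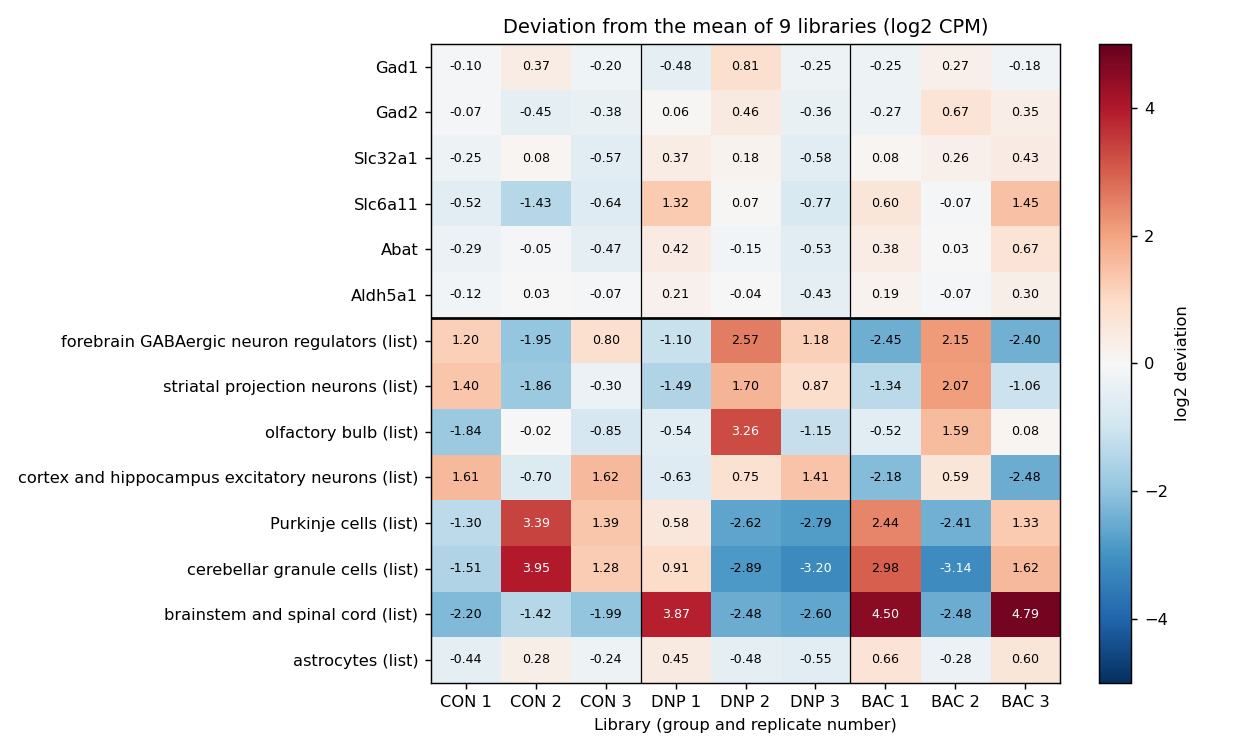
Log2 deviation of each of the 6 genes, and mean log2 deviation of the tested genes of 8 marker lists, from the mean of the 9 libraries (colour and printed value), by library. The brainstem and spinal cord list is at 3.87 to 4.79 in DNP replicate 1 and BAC replicates 1 and 3, where Slc6a11 is at 0.60 to 1.45, and below 0 in the other 6 libraries.

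Fitted values moved further with the choice of libraries and covariates for Slc6a11 than for Abat. Over the 20 alternative settings, Slc6a11 ranged from -0.16 to 1.64 in DNP versus CON and from -0.19 to 1.90 in BAC versus CON, and Abat from -0.08 to 0.42 and from 0.28 to 0.79. Gad1 ranged from -0.42 to 0.62 in DNP versus CON, Gad2 from 0.06 to 0.56 and Slc32a1 from 0.06 to 0.50. Gad2 was at 0.15 without DNP replicate 2 and 0.06 with the covariates, and Slc32a1 at 0.07 without DNP replicate 1 and 0.06 without the 3 libraries that held brainstem markers. In BAC versus CON, Gad2 ranged from 0.36 to 0.95 and Slc32a1 from 0.34 to 0.66. Gad2 in BAC versus CON reached 0.95 (standard error 0.34, unadjusted p = 0.0331, adjusted p = 0.939, edgeR quasi-likelihood) without the 3 libraries with brainstem markers, where BAC replicate 2 is the only BAC library.

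**Figure D5:**
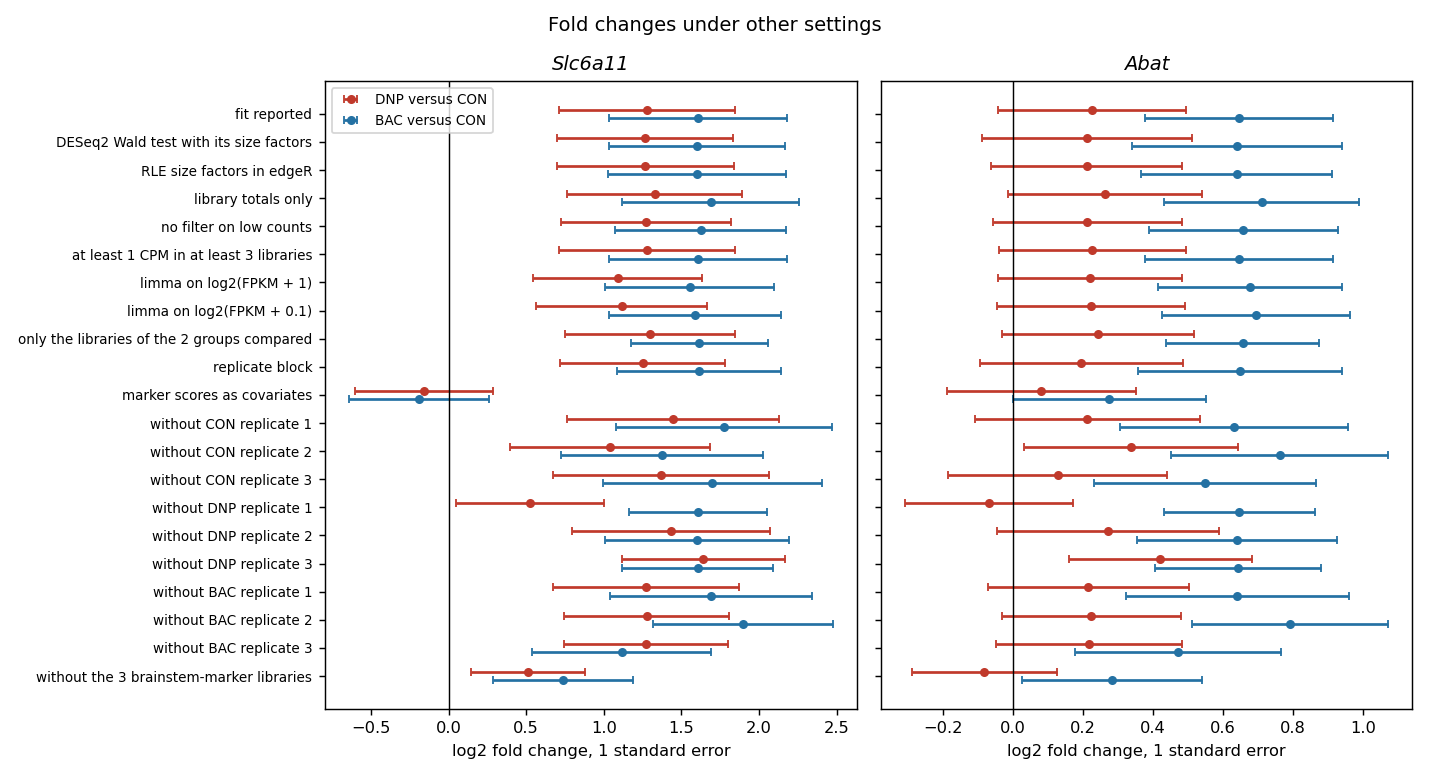
Log2 fold change with 1 standard error (horizontal axis) of Slc6a11 and Abat in DNP versus CON and BAC versus CON under the reported fit and each alternative setting (vertical axis). Slc6a11 lies between 0.51 and 1.90 under every setting except the marker scores as covariates, where it is at -0.16 and -0.19.

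The genes whose log2 CPM followed each of the 6 most closely over the 9 libraries, among 11105 tested genes with a mean of at least 10 CPM, are given as a description, since the libraries share their region make-up. For Slc6a11 they were Nhs (Pearson r of 0.990), the muscarinic receptor gene Chrm2 (0.980) and the neuropeptide gene Adcyap1 (0.980). Chrm2 was at 57.9, 36.0 and 47.9 CPM in DNP replicate 1 and BAC replicates 1 and 3 and at 7.84 to 25.3 CPM in the others. For Abat they were Kank1 (0.985), the sarcosine dehydrogenase gene Sardh (0.981) and Glud1 (0.976). For Aldh5a1 they were the acid ceramidase gene Asah1 (0.956), Fstl5 (0.956) and Zmpste24 (0.950). For Gad1, Pml (0.957), Rrp1b (0.925) and Gm20605 (0.924) came closest. The highest r for Gad2 were those of Plppr3 (0.938), Hap1 (0.917) and Rbm34 (0.908), and for Slc32a1 those of the sodium-calcium exchanger gene Slc8a3 (0.955), Dock11 (0.939) and Gpr137b (0.919).

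Around these 6 genes, 29 genes of the surrounding pathway were listed: 2 other GABA carriers, 10 genes of glutamine and glutamate supply, 2 of pyridoxal phosphate, 4 of the route from putrescine to GABA and 11 neighbours of the GABA shunt. All 29 were tested, with 0 past the adjusted threshold in each comparison (edgeR quasi-likelihood, Benjamini-Hochberg). At an unadjusted p under 0.05 there were 4 of 29 between DNP and CON (2 higher, 2 lower), 1 between BAC and DNP and 2 between BAC and CON, beside 11.2%, 2.37% and 7.76% of all genes. Of the 29, 4 were higher and 2 lower without overlap in DNP versus CON, beside 9.59% and 8.63% of all genes. In BAC versus DNP there were 1 higher and 0 lower (3.38% and 3.41%), and in BAC versus CON 5 higher and 1 lower (7.21% and 6.23%).

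The other GABA carriers are Slc6a12 (BGT1, which also carries betaine) and Slc6a13. Slc6a13 was low, at 5.97, 10.3 and 9.48 CPM in CON, 4.64, 5.26 and 4.66 CPM in DNP and 8.06, 10.5 and 8.38 CPM in BAC. All DNP libraries were below all CON and all BAC libraries. The log2 fold change was -0.82 (standard error 0.24, adjusted p = 0.339) in DNP versus CON and 0.89 (0.25, adjusted p = 0.998) in BAC versus DNP by edgeR's quasi-likelihood test. The 5 markers of meninges, where GAT-2 is found, had a mean log2 deviation of -0.67 to -0.53 in DNP and 0.04 to 0.47 in CON and BAC, and their part in the values of Slc6a13 was not tested. Slc6a11, its relative on astrocytes, had log2 fold changes of 1.28 and 0.33 in the same comparisons. Slc6a12 was at 0.525 to 4.06 CPM in each library, with log2 fold changes of -0.01 (0.83) in DNP versus CON and 0.74 (0.82) in BAC versus CON.

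Of the supply genes, 6 of 10 were higher and 4 lower in DNP versus CON, with a median log2 fold change of 0.03. Slc38a5, a glutamine transporter, was at 2.19 to 2.46 CPM in CON, 4.07 to 7.03 CPM in DNP and 3.34 to 6.01 CPM in BAC, with no overlap between CON and DNP or between CON and BAC. Its log2 fold change was 1.27 (standard error 0.30, adjusted p = 0.294) in DNP versus CON and 0.97 (0.30, adjusted p = 0.628) in BAC versus CON by edgeR. Slc1a3, the glutamate transporter GLAST of astrocytes and Bergmann glia, had a log2 fold change of -0.80 (0.32, adjusted p = 0.416) in DNP versus CON, and its highest level was in CON replicate 2, the library with the most cerebellar markers. Glul, the glutamine synthetase of astrocytes, had 0.49 (0.25, adjusted p = 0.490) in the same comparison. Pdxk, the kinase that supplies the pyridoxal phosphate which both decarboxylases and the transaminase need, had -0.09 (0.20).

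The 4 genes of the putrescine route (Odc1, Maob, Aldh9a1 and Aldh1a1) each had a log2 fold change above 0 in every comparison, with a median of 0.33, 0.20 and 0.53. Maob, a monoamine oxidase abundant in astrocytes, had 0.56 (0.24, unadjusted p = 0.0454, adjusted p = 0.638) in BAC versus CON. Its level was 24.6, 22.1 and 41.0 CPM in BAC replicates 1, 2 and 3 and 19.6 to 19.9 CPM in CON. Aldh1a1 was at 234, 201 and 229.8 CPM in DNP replicate 1 and BAC replicates 1 and 3, at 168 CPM in CON replicate 2 and at 35.2 to 48.6 CPM in the other 5 libraries. Among the shunt neighbours, 9 of 11 were higher in DNP versus CON (median 0.18) and 10 of 11 in BAC versus CON (median 0.28), and 6 of 11 in BAC versus DNP (median 0.06), beside 0.01, -0.02 and -0.01 over all genes. The mean log2 deviation of these neighbours was 0.29 in DNP replicate 1, 0.14 in BAC replicate 1 and 0.26 in BAC replicate 3, and -0.20 to -0.02 in the other 6 libraries. Glud1, the glutamate dehydrogenase, had 0.18 (0.23) and 0.44 (0.23) in these comparisons, and its 3 highest levels were in BAC replicate 3, DNP replicate 1 and BAC replicate 1, as for Abat. Akr7a5, which reduces succinic semialdehyde to γ-hydroxybutyrate and so competes with Aldh5a1, had 0.36 (0.15, adjusted p = 0.428) in DNP versus CON, where all DNP libraries were above all CON libraries.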

How the data were processed

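Male mouse whole-brain RNA was enriched for poly(A) and sequenced as paired-end libraries without strand information. Per the labels and the methods, the authors used FastQC 0.11.9, fastp, Bowtie2 2.3.4.1, HISAT2 2.1.0 and StringTie 1.3.3b with the mouse build GRCm38. They deposited raw counts per gene and FPKM values, the latter scaled by gene length and by the total of the library. The treatment of multi-mapping reads is not given in the sources used here, and an error at that step would be carried into every value. Groups came from the sample titles.

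Counts were tested in R 4.3.3 with edgeR 4.0.16 (quasi-likelihood test, TMM, filterByExpr with a minimum count of 10, all 9 libraries in 1 fit, group as the only term, Benjamini-Hochberg adjustment over 18501 genes, threshold 0.05). Plotted and printed CPM were scaled by TMM factors, and log2 deviations used a prior count of 2. The common biological coefficient of variation was 36.5%, and pairs of libraries of the same group differed by a chi-square of 15.1 to 116 per degree of freedom, so none is a copy of another. FPKM served for levels per length and for ratios. The pipeline was tested on simulated data. Alternatives were DESeq2 1.42.0, RLE factors, library totals, other filters, limma 3.58.1 on FPKM after log2 (pseudocounts 1 and 0.1), fits of 2 groups, a replicate block, marker scores as covariates and each library left out in turn. A fit without the 3 libraries high in brainstem and spinal cord markers was added after the data were seen. The 6 genes, the pathway lists and the marker lists were chosen with earlier results of these data known. Genes named are the 6, genes of these lists, and for each of the 6 the 3 genes with the highest Pearson r. Positions and coding sequences came from GENCODE on GRCm38. Some genes of the pathway lists are counted but not reported singly here.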

Additional observations from a re-analysis of the deposited data

How the results depend on the processing

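None of the 6 genes passed an adjusted p of 0.05 in any of 360 values under the alternatives (edgeR, DESeq2 or limma), and 336 of these kept the direction reported. The other 24 lay on the opposite side of 0. With marker scores as covariates, Slc6a11 was at -0.16 between DNP and CON, -0.0305 between BAC and DNP and -0.19 between BAC and CON, and Gad1 at 0.0739 and 0.70 in the latter pair of comparisons. Without the 3 libraries high in brainstem and spinal cord markers, Abat was at -0.0821 in DNP versus CON, and Gad1 at 0.21 and Aldh5a1 at -0.0261 in BAC versus CON. Aldh5a1 in DNP versus CON was at 0.03 with library totals, 0.0109 with limma on log2(FPKM + 1), 0.0105 with it on log2(FPKM + 0.1), and 0.0062 with the libraries of 2 groups only. Leaving out each library in turn gave ranges in DNP versus CON of -0.42 to 0.33 for Gad1, -0.0684 to 0.42 for Abat and -0.17 to 0.14 for Aldh5a1. In BAC versus DNP they were -0.41 to 0.33 for Gad1, -0.0214 to 0.44 for Gad2, -0.0192 to 0.41 for Slc32a1 and -0.16 to 1.08 for Slc6a11, and in BAC versus CON -0.26 to 0.11 for Gad1. The cause of these shifts was not tested. Over all genes, edgeR called 0 in each comparison, with 2067, 438 and 1436 at an unadjusted p under 0.05, and DESeq2 called 342, 7 and 100. Leaving out a library gave 0 to 1 calls (1 without CON replicate 2 and 1 without CON replicate 3, in both comparisons with CON). With library totals only, 1317 of 2077 genes at an unadjusted p under 0.05 were higher in DNP versus CON, against 1056 of 2067. With a replicate block, 0 genes were called in each comparison, and 1688, 382 and 1203 had an unadjusted p under 0.05. Same-numbered libraries of different groups had deviations that correlated from -0.579 to 0.560, so the numbers were not taken to pair the samples. Counting error was at most 2.78% for these genes, so the spread between libraries, not depth, limits the comparisons.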

Other observations

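Markers of cells outside the GABA system also differed between libraries. The 5 red blood cell markers had a mean log2 deviation of -1.20 to -0.81 in CON, 0.22 to 0.78 in DNP and 0.21 to 0.92 in BAC, so that CON lay below both diabetic groups without overlap. The 8 oligodendrocyte markers were at -0.997 to -0.55 in CON, -0.31 to 0.997 in DNP and -0.66 to 1.02 in BAC. The 8 microglial markers were at -0.79 to -0.02 in CON, 0.01 to 0.34 in DNP and -0.19 to 0.61 in BAC. The 6 endothelial markers were at -0.04 to 0.21 in CON, -0.14 to 0.39 in DNP and -0.48 to -0.11 in BAC.

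Lists of single regions varied within groups. Choroid plexus markers ranged from -2.44 in BAC replicate 2 to 1.89 in BAC replicate 1, and excitatory neuron markers of cortex and hippocampus from -2.48 in BAC replicate 3 to 1.62 in CON replicate 3. Thalamic markers ranged from -0.86 in DNP replicate 2 to 1.40 in BAC replicate 3, and the 4 hypothalamic markers tested of 9 from -0.99 to 1.13. The mean over the 11 genes of interneuron classes, whose members moved in opposite directions between libraries (Pvalb spanned 16.8 to 310.3 CPM and Sst 19.3 to 186 CPM), was at -0.27 to 0.46 in CON, -0.08 to 0.34 in DNP and -0.33 to 0.10 in BAC. Their part in the levels of Gad1, Gad2 and Slc32a1 was not tested.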
